A study of Mus musculus with 12 samples.

Results

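Gata2, Gata3, Gata4, Gata5, Gata6, Wt1, Tcf21, Zfpm1 and Zfpm2 encode transcription factors and cofactors of mesoderm and fat, and MOF binding was examined at these 9 of the 21938 protein-coding genes annotated on the assembled chromosomes. They were chosen by name, with earlier results of these data known. Gata2 and Gata3 restrain the formation of fat cells, and Gata4, Gata6, Wt1 and Tcf21 mark visceral mesoderm. Gata5 is their close relative, and Zfpm1 and Zfpm2 (FOG1 and FOG2) are cofactors that bind GATA proteins. A gene was said to have a peak where a peak lay at least partly in its body or within 3 kb of any of its annotated transcription start sites. MOF (KAT8) is a lysine acetyltransferase of histone H4, and its positions were mapped by chromatin immunoprecipitation and sequencing (ChIP-seq) in visceral white adipose tissue (WAT) of C57BL/6 mice aged 8 weeks on a standard diet. The animals were wild type (Mof+/+) or Mof heterozygous (Mof+/-), and the labels give 12 libraries in 6 groups of 2, for each genotype the input DNA and the immunoprecipitates of MOF and of histone H3. The deposited peaks form 1 list per genotype with no replicate values, so the lists could be compared but a difference between genotypes could not be tested.

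GATA factors are zinc finger proteins that bind the core sequence GATA, and GATA2 and GATA3 hold preadipocytes in an undifferentiated state by acting on PPARG and C/EBP proteins. WT1 is a zinc finger protein of the mesothelium that lines the abdominal organs and marks progenitors from which part of visceral, but not subcutaneous, fat arises, and TCF21 is a basic helix-loop-helix factor of the same mesenchyme. FOG proteins do not bind DNA in a sequence-specific way but join the N-terminal finger of GATA factors and can turn them into activators or repressors.

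Mof+/+ WAT carried 22 MOF peaks at 7 of the 9 genes, 77.8%, beside 44.5% of all protein-coding genes. Mof+/- WAT carried 6 peaks at 3 of the 9, 33.3%, beside 1.89% of all protein-coding genes. Gata3 had the most Mof+/+ peaks, 10, and 0 Mof+/- peaks. Gata4, Gata6 and Wt1, 3 of the visceral mesoderm factors, held all 6 Mof+/- peaks, with 3, 2 and 1. Gata2, Tcf21 and Zfpm1 had Mof+/+ peaks only, and Gata5 and Zfpm2 had none in either list. The median body was 33.6 kb for the 9 genes and 17.4 kb for all protein-coding genes, and the part of gene length in these shares was not tested. With 9 genes, chosen with earlier results of these data known, and 1 list per genotype these shares are a description.

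**Figure D1:**
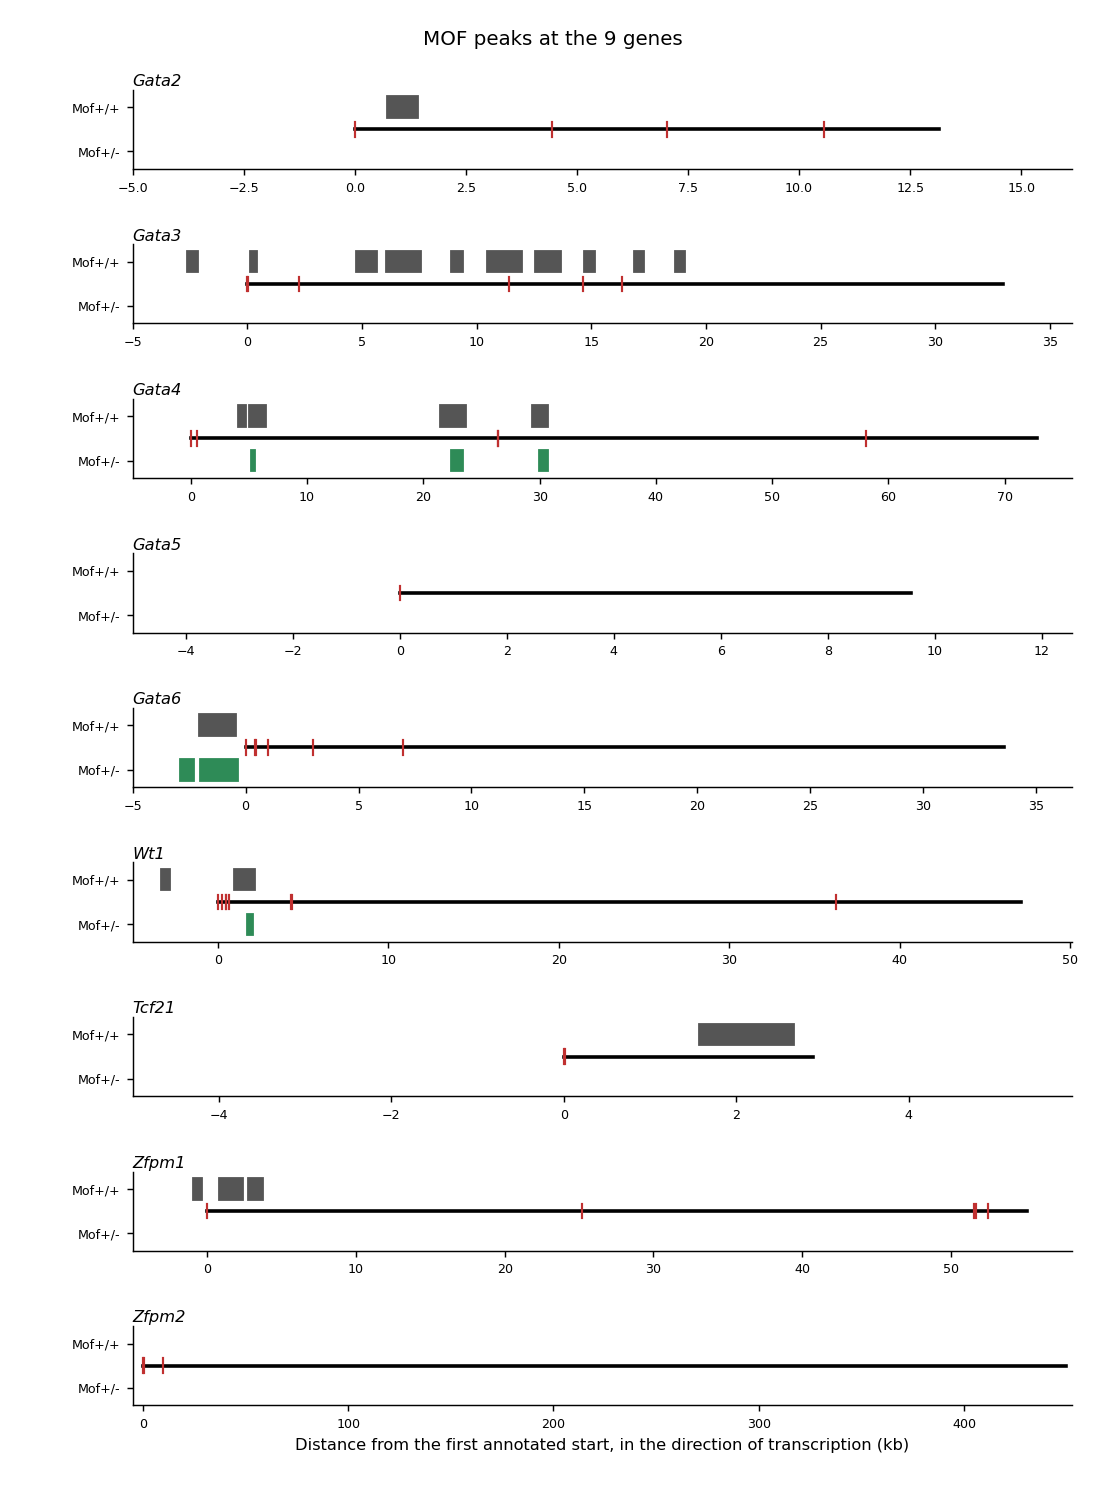
Peaks at each of the 9 genes by distance in kb from the first annotated start, in the direction of transcription, with the axis scaled for each gene. The black line is the gene body, red ticks are annotated start sites, grey boxes are Mof+/+ peaks and green boxes Mof+/- peaks; 10 grey boxes lie at Gata3, and the 6 green boxes lie at Gata4, Gata6 and Wt1.

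Sequence from 150 bp around the summit, the position of the highest signal in a peak, is shown for 5 peaks on which the comparison turned: the strongest peak of Gata3, which no Mof+/- peak overlapped, the Mof+/+ summits of 2 Gata4 peaks that a Mof+/- peak did overlap, the Mof+/- summit in an intron of Wt1, and the strongest peak of Zfpm1. Letters are given 5′ to 3′ on the strand of the gene in GRCm38. Capitals mark CpG sites and, on either strand, the word AGATAA, the word AGATAG, the word TGATAA and the word TGATAG, which hold the core that GATA factors bind.
Gata3 Mof+/+ peak 4, chr2:9882802-9882951, minus strand: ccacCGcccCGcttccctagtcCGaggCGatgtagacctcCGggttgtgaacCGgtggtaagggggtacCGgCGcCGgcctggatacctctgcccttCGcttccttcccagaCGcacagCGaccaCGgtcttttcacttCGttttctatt
Gata4 Mof+/+ peak 2, chr14:63266328-63266477, minus strand: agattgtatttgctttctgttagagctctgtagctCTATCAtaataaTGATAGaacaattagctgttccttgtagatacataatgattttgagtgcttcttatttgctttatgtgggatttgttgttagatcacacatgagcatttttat
Gata4 Mof+/+ peak 3, chr14:63248694-63248843, minus strand: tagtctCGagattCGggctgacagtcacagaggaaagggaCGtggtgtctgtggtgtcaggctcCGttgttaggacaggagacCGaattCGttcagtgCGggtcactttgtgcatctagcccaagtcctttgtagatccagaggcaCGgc
Wt1 Mof+/- peak 1, chr2:105128366-105128515, plus strand: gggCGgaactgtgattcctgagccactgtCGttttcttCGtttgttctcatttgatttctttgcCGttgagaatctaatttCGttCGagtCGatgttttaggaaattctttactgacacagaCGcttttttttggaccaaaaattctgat
Zfpm1 Mof+/+ peak 2, chr8:122283760-122283909, plus strand: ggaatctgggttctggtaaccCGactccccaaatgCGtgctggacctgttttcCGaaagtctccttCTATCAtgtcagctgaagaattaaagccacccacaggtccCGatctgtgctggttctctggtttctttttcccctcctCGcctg

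The Gata3 window held 14 CpG sites at 61.3% GC. The window of Gata4 peak 2 held 0 CpG sites at 31.3% GC, with a GATA word on each strand. Gata4 peak 3 and the Wt1 window held 8 CpG sites each, at 54.7% and 39.3% GC. Windows of 150 bp at the Mof+/- summits that pair with Gata4 peaks 2 and 3 were at 32% and 53.3% GC. Peaks of both lists thus lay in DNA of different composition. In a wider window of 300 bp around the summit, 5 of the 22 Mof+/+ peaks (22.7%) held a GATA word, beside 26.8% of all Mof+/+ peaks, and Gata4 peak 2 held 4 of them. The E-box CAGCTG, a form that basic helix-loop-helix factors such as TCF21 bind, stood in 1 of the 22 windows (4.55%), beside 18.1% of all Mof+/+ peaks. GTGGGAG, a word of the WT1 type searched on both strands like the others, stood in 2 of 22 (9.09%), beside 8.51%. A match is only a match of letters. The median CpG density of the 22 peaks was 2.95 per 100 bp, and it was 2.45 over all Mof+/+ peaks.

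Fold enrichment, as the authors' peak caller MACS2 gives it, is the number of fragments over the summit plus 1, divided by the number expected from the input background plus 1. The fragment number and the background were recovered from the fold enrichment and the p-value of each peak, and the intervals given here are 95% Poisson intervals of the fragment number carried over to the fold enrichment. They cover counting error only, since nothing in the lists measures the spread between animals. The 22 Mof+/+ peaks rested on 12 to 26 fragments each and the 6 Mof+/- peaks on 13 to 18, so the intervals are wide. The median fold enrichment of the 22 was 3.64, beside 3.40 for all 19753 Mof+/+ peaks on the assembled chromosomes, and 5 of the 22 were at or above its 75th percentile. The 6 Mof+/- peaks had a median of 4.86, beside 4.29 for all 716.

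**Figure D2:**
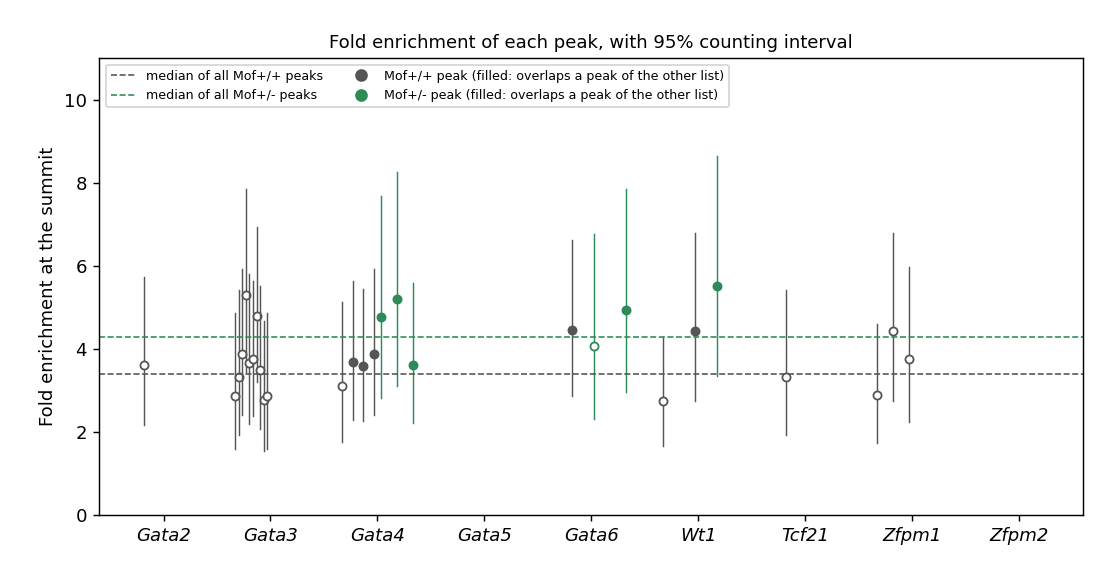
Fold enrichment at the summit (linear scale) of each peak of the 9 genes, with its 95% counting interval as a vertical line, Mof+/+ in grey and Mof+/- in green. Filled points overlap a peak of the other list, dashed lines are the medians of all Mof+/+ (3.40) and all Mof+/- (4.29) peaks, and the intervals of Mof+/+ and Mof+/- peaks overlap at Gata4, Gata6 and Wt1.

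Gata2 (chr6:88193891-88207032, plus strand), a factor of blood progenitors and preadipocytes, had a single Mof+/+ peak at chr6:88194607-88195316. Its summit lay 1330 bp downstream of the first start, in an intron, with a fold enrichment of 3.62 (interval 2.16 to 5.74) from 16 fragments over a background of 3.70. That value was near the middle of the Mof+/+ list, above 59.3% of its peaks. No Mof+/- peak lay within 522848 bp of a Gata2 start.

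Gata3 (chr2:9857078-9890034, minus strand), which besides its role in preadipocytes directs T helper cell and innate lymphoid cell fate, was covered most densely. Its 10 Mof+/+ peaks ran over 21.7 kb, from the region before its first start to the middle of the gene, and covered 35.9% of that stretch. That is 2.78 peaks per 10 kb of window, beside 0.273 to 1.66 at the other 6 genes with a peak. Counted in the direction of transcription, their fold enrichments were 2.88, 3.32, 3.87, 5.31, 3.66, 3.75, 4.80, 3.48, 2.77 and 2.88. The highest values lay inside the gene, and the outermost peaks were among the lowest. Of all protein-coding genes, 149 (0.679%) had as many Mof+/+ peaks or more.

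Peak 4 of Gata3 (chr2:9882454-9883964) was the strongest of the 22 peaks, with a fold enrichment of 5.31 (3.45 to 7.86) from 23 fragments, and a −log10 q-value of 8.26. It exceeded 92.4% of all Mof+/+ peaks. Its summit lay 4277 bp upstream of the start of the transcript Gata3-201, in an intron of the longer Gata3 transcripts and 241 bp from an internal start of 4930412O13Rik, a gene on the opposite strand. Peak 7 (chr2:9876347-9877477) followed with 4.80 (3.20 to 6.95) from 26 fragments, with its summit 1432 bp downstream of Gata3-201 and 88 bp from the start of the antisense gene Gm13256. Peak 6 (chr2:9878064-9879598), with 3.75 (2.38 to 5.64), was the only one of the 22 that covered a start of its own gene, that of Gata3-201. ChIP-seq carries no strand, so binding at Gata3 and at these overlapping genes could not be told apart. The nearest Mof+/- peak lay 1645046 bp from a Gata3 start.

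Gata4 (chr14:63198922-63271692, minus strand), a factor of heart, gonad and visceral mesoderm, had 4 Mof+/+ peaks, each with its summit in an intron. Their fold enrichments were 3.10, 3.68, 3.58 and 3.87 in the direction of transcription, each within the intervals of the other 3. The 3 later peaks were each overlapped by a Mof+/- peak, with fold enrichments of 4.78, 5.21 and 3.61. The first peak, with the lowest value and 13 fragments, was not. None of these 7 peaks lay within 1 kb of a Gata4 start, and the nearest edge of a Mof+/+ peak was 2759 bp from one.

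Gata6 (chr18:11052064-11085635, plus strand), a factor of endoderm and visceral mesoderm, was the only one of the 9 genes with more Mof+/- peaks than Mof+/+ peaks. The single Mof+/+ peak, chr18:11050015-11051637, had a fold enrichment of 4.44 (2.86 to 6.63) from 22 fragments, and its summit lay 1548 bp upstream of the first start, within the opposite-strand transcript 1010001N08Rik. A Mof+/- peak of nearly the same extent, chr18:11050052-11051740, had 4.95 (2.95 to 7.85) from 16 fragments. The other Mof+/- peak, chr18:11049169-11049777, had 4.07 (2.31 to 6.76) from 13 fragments, 2895 bp upstream, and overlapped no Mof+/+ peak. With peaks within 1000 bp of each other merged, the 2 Mof+/- peaks became 1, so that Gata6 had 1 peak in each list and was no longer among the genes with 2 or more Mof+/- peaks.

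Wt1 (chr2:105126529-105173616, plus strand) had 2 Mof+/+ peaks. The one before the gene, chr2:105123222-105123750, had the lowest fold enrichment of the 22 peaks, 2.74 (1.66 to 4.30), and its summit lay in the antisense gene Wt1os. The one in the first part of the gene, chr2:105127484-105128688, had 4.42 (2.75 to 6.78) from 19 fragments, with its summit 659 bp downstream of the transcript Wt1-204. The Mof+/- peak, chr2:105128258-105128567, lay at the far end of the latter, with 5.52 (3.34 to 8.65) from 17 fragments, the highest fold enrichment of any peak at the 9 genes in either list. It exceeded 84.8% of all Mof+/- peaks.

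Tcf21 (chr10:22817281-22820174, minus strand), the shortest of the 9 genes at 2.89 kb, had 1 Mof+/+ peak at chr10:22817498-22818601 with a fold enrichment of 3.32 (1.91 to 5.42) from 14 fragments. Its summit lay 2165 bp from the first start, in an intron, and inside the antisense gene Gm10824. Gata5 (chr2:180325133-180334699, minus strand), a factor of heart and endoderm, had 0 peaks. The peak nearest to its start in each list was the same site 44784 bp away, at the start of Rbbp8nl, with 3.76 in Mof+/+ and 4.29 in Mof+/- WAT.

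Of the FOG cofactors, Zfpm1 (chr8:122282141-122337251, plus strand), the partner of GATA1 in blood, had 3 Mof+/+ peaks. They lay 866 bp upstream, 1694 bp downstream and 3158 bp downstream of the first start by their summits, with fold enrichments of 2.90, 4.42 and 3.76. The peak at 1694 bp, chr8:122282978-122284570, rested on 19 fragments and exceeded 80.1% of all Mof+/+ peaks. Zfpm2 (chr15:40655035-41104592, plus strand), the partner of GATA4 in heart and gonad, had 0 peaks over a body of 450 kb. The nearest Mof+/+ peak lay 1123418 bp and the nearest Mof+/- peak 3421328 bp from its starts.

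MOF peaks at these genes lay beside starts of their own gene more than over them. Of the 22 Mof+/+ summits, 6 were within 1 kb of a start of the gene and 16 between 1 and 5 kb. Of all Mof+/+ peaks in the window of a protein-coding gene 59.2% had the summit within 1 kb. That share is a wider measure, since it counts the nearest start of any protein-coding gene whose window held the peak. By it Gata3 peak 3 lay 611 bp from a start of 9230102O04Rik, and peaks 4 and 5 lay 241 and 320 bp from starts of 4930412O13Rik. A start of the gene itself was covered by 1 of the 22 peaks, beside 42.3% of those peaks by the wider measure. Gata3 peak 4 also covered a start of 4930412O13Rik. All 6 Mof+/- summits lay between 1 and 5 kb from a start, while 52.1% of the Mof+/- peaks in windows of protein-coding genes had it within 1 kb. With the window narrowed to 1 kb around starts, 5 of the 9 genes kept a Mof+/+ peak, beside 41.0% of all protein-coding genes, and 1 of 9, Gata6, kept a Mof+/- peak, beside 1.32%. By position, 18 of the 22 Mof+/+ summits were in introns of the gene and 4 were outside it. In 6 of the 22 the nearest start of any annotated gene belonged to another gene.

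CpG sites, which are dense at many promoters, were counted at the start sites of each gene. In the 1001 bp centred on the richest start, Gata5 and Zfpm2, without peaks, held 69 and 94 CpG sites. Gata3 with 10 peaks held 46 and Tcf21 held 33. Zfpm1 with 135, Wt1 with 101, Gata6 with 93 and Gata2 with 88 were the richest with a peak, and Gata4 held 63. The median was 50 over all protein-coding genes and 71 over those with a Mof+/+ peak. Both genes without a peak were above the median of all genes, and Gata5 was close to the median of genes with one. The part of CpG content in the presence or absence of peaks was not tested.

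Between the genotypes, 5 of the 22 Mof+/+ peaks (3 at Gata4, 1 at Gata6 and 1 at Wt1) were overlapped by a Mof+/- peak, sharing at least 1 bp. Of all Mof+/+ peaks 2.44% were overlapped, and 2.43% of those in the window of a protein-coding gene. In the other direction 5 of the 6 Mof+/- peaks overlapped a Mof+/+ peak, beside 84.8% of all Mof+/- peaks. With 2 or more Mof+/- peaks, Gata4 and Gata6 were among 125 protein-coding genes (0.570%), and 26 genes had more than the 3 of Gata4. Among the genes with the most Mof+/- peaks were Shox2 with 6, and Sp9, Hoxd13 and Spag6 with 5 each.

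In position, 2 of the 3 pairs at Gata4 had summits under 50 bp apart. The summits of peak 2 and its Mof+/- partner were 43 bp apart, those of peak 3 and its partner 49 bp, and those of peak 4 and its partner 360 bp. Each Mof+/- peak of Gata4 lay wholly within the Mof+/+ peak, covering 27.4%, 48.8% and 56.8% of it. At Gata6 the pair shared 97.7% of the Mof+/+ and 93.9% of the Mof+/- peak, with summits 352 bp apart. At Wt1 the Mof+/- peak covered 25.7% of the Mof+/+ peak, with summits 572 bp apart.

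Fold enrichment was higher in the Mof+/- list in 4 of these 5 pairs, but the intervals overlapped in all 5. Gata4 peak 3 went from 3.58 (2.25 to 5.43) in Mof+/+ to 5.21 (3.11 to 8.27) in Mof+/- WAT, and Wt1 peak 2 from 4.42 to 5.52. The exception was Gata4 peak 4, with 3.87 and 3.61. The lists also differ in background, which was 4.87 fragments in Mof+/+ and 2.26 in Mof+/- at Gata4 peak 3, and in the cutoff a Mof+/- peak had to pass. A site enters the Mof+/- list only with a high value, so these pairs do not measure a change of binding.

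Coverage and cutoff differed between the lists. The lowest background at a summit, which follows the scale of a library, was 3.52 fragments for Mof+/+ peaks but 2.26 for Mof+/- peaks, 1.56 times lower, and the weakest peak had a −log10 p-value of 3.25 against 4.72. When the fragments and background of each Mof+/+ peak were scaled down by that ratio, all 5 overlapped peaks of the 9 genes still passed the weakest Mof+/- p-value. Of the 17 that were not overlapped, 12 did not pass it. The remaining 5 did: Gata3 peaks 3, 4, 6 and 7 and Zfpm1 peak 2. Over the whole Mof+/+ list 7292 peaks (36.9%) passed, while the Mof+/- list held 716 peaks on the assembled chromosomes.

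Gata3 peaks 4 and 7 had the most room. At Mof+/- coverage they would hold, rounded to whole fragments, 15 and 17, where 11 and 12 were needed. Gata3 peaks 3 and 6 would hold exactly the 12 and 13 fragments needed, and Zfpm1 peak 2 would hold 12 with 11 needed. At the 3 overlapped Gata4 peaks 12, 13 and 12 fragments were expected and 12, 13 and 12 needed. The Mof+/- peaks there held 15, 16 and 18, over backgrounds of 2.35, 2.26 and 4.26 where scaling gave 2.85, 3.13 and 2.68. At the overlapped Gata6 and Wt1 peaks 14 and 12 fragments were expected, and the Mof+/- peaks held 16 and 17. The scaling is therefore only approximate for a single site. The part of coverage in the absence of Gata3 from the Mof+/- list was not tested.

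**Figure D3:**
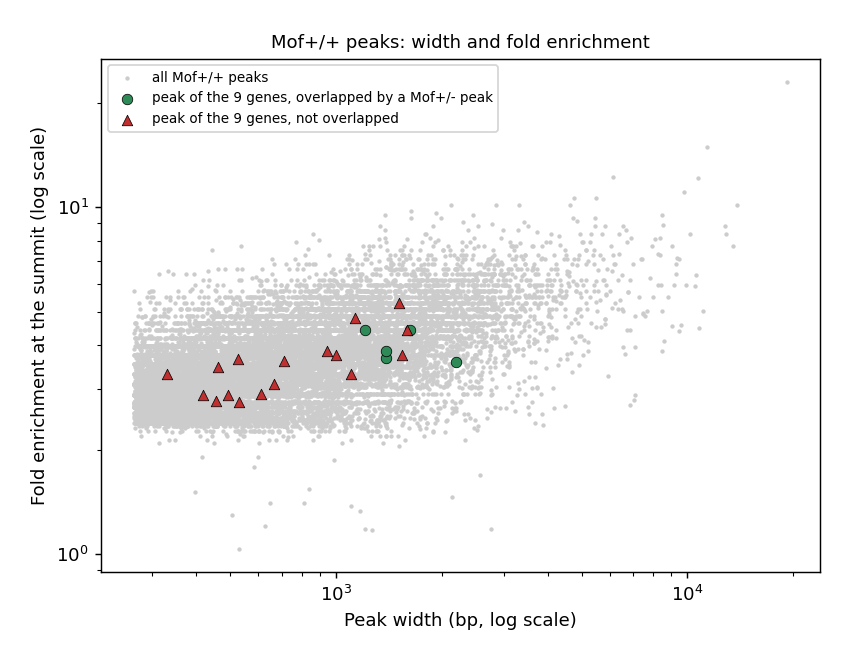
Width in bp against fold enrichment at the summit, both on log scales, of all 19753 Mof+/+ peaks on the assembled chromosomes (grey dots) and of the 22 at the 9 genes. Green circles are the 5 overlapped by a Mof+/- peak, 1205 to 2196 bp wide, and red triangles the 17 not overlapped, among them the 2 highest in fold enrichment.

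The overlapped peaks at these genes were wider than most of the others. Their median fold enrichment was also higher, though the highest single values were among the others. The 5 overlapped peaks were 1205 to 2196 bp wide with a median of 1387 bp, and the 17 others had a median of 667 bp with the widest at 1593 bp. The fold enrichments were 3.58 to 4.44 in the 5, with a median of 3.87, and 2.74 to 5.31 in the 17, with a median of 3.48. Over the whole list, overlapped Mof+/+ peaks had a median width of 1773 bp and all Mof+/+ peaks 609 bp. The median fold enrichments were 4.57 and 3.40. The 22 peaks together had a median width of 973 bp.

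Related genes, grouped with earlier results of these data known, gave the following counts, to be read beside the 44.5% and 1.89% of all protein-coding genes. Among 10 GATA relatives and partners, 8 had a Mof+/+ peak and 2 a Mof+/- peak, one of them Tal1, a partner of GATA factors in blood, with a highest Mof+/- fold enrichment of 5.16. Among 20 other mesoderm and mesothelial factors, 8 had a Mof+/+ peak (40%, below the share of all genes) and 7 a Mof+/- peak (35%). They included the kidney and limb factor Osr2 with 7.05, the gonadal regulators Nr5a1 with 6.13 and Lhx9 with 5.21, and the T-box factors Tbx20 with 4.91 and Tbx18 with 4.60. Among 11 relatives and partners of Tcf21 and Wt1, 5 had a Mof+/+ peak and 1 a Mof+/- peak, Tcf12 with 4.91. Of 10 adipogenic targets and regulators, on which GATA2 and GATA3 are known to act in part, 7 had a Mof+/+ peak and 1 a Mof+/- peak, the brown fat factor Ebf2 with 3.99.

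Other families of developmental factors gave Mof+/- shares of a similar order. T-box genes had a Mof+/- peak in 6 of 17 (35.3%), forkhead genes in 9 of 44 (20.5%) and Sox genes in 3 of 19 (15.8%), beside the 33.3% of the 9 genes. Their Mof+/+ shares were 52.9%, 65.9% and 52.6%, beside 77.8%. A family of 9 genes shifts by 11.1% with each gene, so no order between these families was read from the shares.

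**Figure D4:**
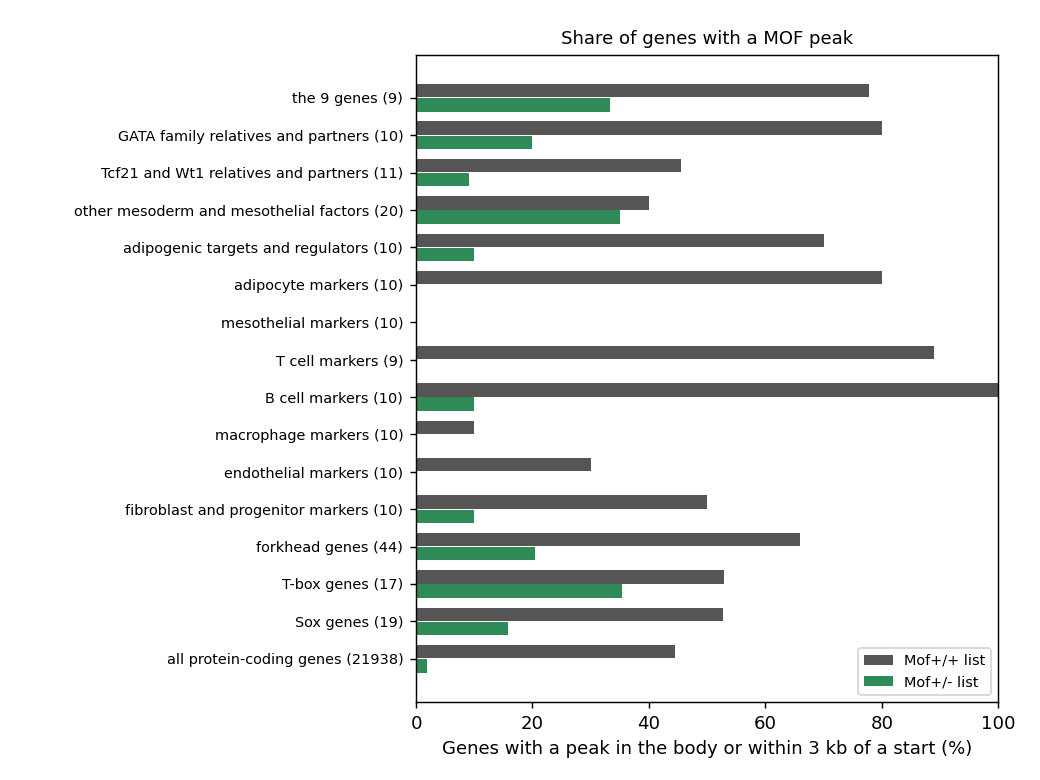
Share in percent of the genes of each list, with their number in parentheses, that had a peak in the body or within 3 kb of a start, in the Mof+/+ list (grey bars) and the Mof+/- list (green bars). The 9 genes stand at 77.8% and 33.3%, all protein-coding genes at 44.5% and 1.89%.

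The tissue label was set against markers of the cells that WAT holds, by MOF peaks since expression was not analysed here. Mof+/+ peaks were found at 8 of 10 adipocyte markers, 10 of 10 B cell markers, 8 of 9 T cell markers, 5 of 10 fibroblast and progenitor markers, 3 of 10 endothelial markers, 1 of 10 macrophage markers and 0 of 10 mesothelial markers. These counts are to be read beside the 44.5% of all protein-coding genes with a Mof+/+ peak. Of these lists, Mof+/- peaks were found at Pax5 in B cells, with 4.66, and Pdgfra in progenitors, with 5.53, and at no other marker. Of all protein-coding genes 1.89% had a Mof+/- peak, so no trait of a cell type was read from these single markers. Gata3 is used by lymphoid cells and Wt1 by mesothelial cells as well as by progenitors, and in bulk tissue fewer cells of a type and less MOF per cell cannot be told apart. The part of cell composition in the peaks at the 9 genes was not tested.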

How the data were processed

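MOF ChIP, H3 ChIP and input DNA were sequenced from visceral WAT of Mof+/+ and Mof+/- mice. The authors aligned reads to GRCm38 through snakePipes and called peaks over input by MACS2 2.1.1.20160309.3, keeping q-values up to 0.1. How replicates were combined is not stated. The series text gives 3 Mof+/- animals, the labels 2 libraries and the study's reporting summary 2 littermates per genotype. The deposited lists hold fold enrichment as a ratio to the local background, −log10 p-values and −log10 q-values at the summit, and the summit position. The score deposited with each peak was not used. Chromatin was cut with CviKI-1, which cuts at RGCY sites, and by sonication, so fragment ends depend in part on sequence: the median density of these sites was 17.3 per kb in the 22 peaks and 21.2 per kb in all Mof+/+ peaks. The methods mention merging of peaks within 1000 bp, but closer peaks are present. The genotype of a list was taken from its name, that of the Mof+/+ list by the absence of the mark for heterozygotes. H3 libraries and signal tracks were not analysed here.

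Genes came from GENCODE M21 and sequence from GRCm38.p6, the build of the files. Python 3.11.15, numpy 2.4.6, scipy 1.17.1, pysam 0.24.0 and matplotlib 3.10.9 were used. Fragments and background were solved from fold enrichment and p-value, for 99.9% of Mof+/+ and 98.9% of Mof+/- peaks, with code tested on simulated data. The lists give no library totals, so depth is known only from these values. Peaks were compared by overlap of at least 1 bp on assembled chromosomes, and no test was run since there is 1 list per genotype. Genes named were all 9, up to 10 listed genes with a Mof+/- peak by highest fold enrichment, the 5 genes with the most Mof+/- peaks (1 of them is not reported here), and neighbours of peaks. The 9 genes and all lists were chosen with earlier results of these data known. Of the T cell list 1 gene was not found in the annotation. Windows, thresholds, merging and overlap were varied.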

Additional observations from a re-analysis of the deposited data

How the results depend on the processing

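Of the 43 values recomputed for the 9 genes, 37 stayed within 1.5 times the reported count and 6 did not. With windows of 1 kb around starts alone, 10 Mof+/+ peaks, 1 Mof+/- peak at 1 gene and 2 overlapped Mof+/+ peaks were left. At a q-value of at most 0.001, 14 Mof+/+ peaks were left. When both peaks had to share 50% of their length, 2 Mof+/+ peaks counted as overlapped. Under the other settings the counts were 17 to 24 Mof+/+ peaks, 4 to 6 Mof+/- peaks and 4 to 6 overlapped peaks. No paired analysis was possible because neither list carries replicate values, and for the same reason no replicate could be left out. Peaks rest on 12 to 26 fragments, which limits every comparison of strength.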
